A study of Homo sapiens with 12 samples.

Results

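Extracellular proteolysis was examined through 9 genes of the 44659 in the count table of A375 cells: PLAT and PLAU, which encode the tissue-type and urokinase-type plasminogen activators, PLAUR, which encodes the urokinase receptor, SERPINE2, which encodes the inhibitor protease nexin-1, the matrix metalloproteinase (MMP) genes MMP1, MMP2 and MMP14, and TIMP1 and TIMP3, which encode tissue inhibitors of metalloproteinases. They were chosen by symbol, and each of the 9 symbols was found once. A375 is an established human melanoma cell line that carries a mutated BRAF, and all groups share that mutation and a medium with serum. In the first experiment cells received 500 nM vemurafenib, a BRAF inhibitor, plus 500 nM cobimetinib, a MEK inhibitor, for 24 h (MAPKi), or DMSO, the solvent. In the second experiment cells were kept for 24 h in a glutamine-free medium (Gln-depleted) or in a medium with 2 mM glutamine (CTRL), and the labels describe a wash with saline for the Gln-depleted cells only. Each of the 4 groups has 3 libraries, or 12 in all. The paper states that the MAPKi experiment was performed in triplicate. In the second experiment the labels place replicate 1 in experimental batch 1 and the others in batch 2. They do not otherwise say whether replicates were separate cultures. The p-values measure the spread between libraries, which may in part be technical.

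Plasminogen activators are secreted proteases that cleave plasminogen to plasmin, a broad protease that degrades fibrin and matrix proteins and can activate other proteases. Serpins trap the activators in inactive complexes, and the urokinase receptor holds PLAU at the cell surface. Matrix metalloproteinases cleave collagens and other matrix proteins and are blocked by TIMPs, and MMP14, which is anchored in the membrane, cuts the proform of MMP2 into its active form. Both systems are known in melanoma for their part in invasion and matrix remodelling.

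In the MAPKi experiment 31056296 to 39123093 reads were counted per library, and in the Gln experiment 31292346 to 40071368. With totals this high, counting error limits only the genes with few reads, here PLAU and MMP1. Of 12 melanoma markers, 10 were above 1 CPM (reads scaled to library depth) in DMSO, CTRL and Gln-depleted cells and 12 in MAPKi cells, with summed levels of 6401 to 6790 CPM in DMSO and 11170 to 13510 CPM in MAPKi libraries. With MAPKi 7 of the 12 were upregulated and 2 downregulated against the limit described below, beside 17.1% and 18.4% of all genes. Among those that fell was S100B, with a log2 fold change of -2.13. Without glutamine 0 of 11 tested were upregulated and 1 downregulated, beside 3.49% and 1.92% of all genes. Of 5 epithelial markers 0 passed 1 CPM, and CD3E of the leukocyte and COL3A1 of the fibroblast list were at 0 in all 4 groups. Other genes of these lists were detected: LUM and PDGFRA of 6 fibroblast markers passed 1 CPM in all 4 groups, with COL1A1 in addition with MAPKi (summed list 13.5 to 28.1 CPM over all libraries), as did VWF of 4 endothelial markers in all 4 groups and KDR in all but MAPKi (4.38 to 10.3 CPM). With MAPKi VWF was upregulated (0.87) and KDR downregulated (-4.54), and without glutamine PDGFRA was upregulated (1.33) and LUM downregulated (-2.21), as log2 fold changes against the limit described below. The summed leukocyte list moved with MAPKi, from 55.7 to 65.4 CPM in DMSO to 392 to 404 CPM in MAPKi libraries, and CD68 was the only one of its 5 genes above 1 CPM there. In DMSO, CTRL and Gln-depleted cells LYZ passed 1 CPM beside CD68, and with MAPKi LYZ did not. The part of these markers in the results below was not tested.

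The 250 bases before each RefSeq start site (GRCh38.p14) are shown for the genes that moved together. Such promoters were available for 6 of the 9 genes, with a pair of starts for PLAU and for SERPINE2, and for MMP1, MMP2 and PLAT no promoter was used here. Those of SERPINE2, TIMP1 and PLAUR, which were all higher without glutamine, and those of TIMP3 and MMP14, which were not, are given 5′ to 3′ on the strand of the gene. Capitals mark the motif letters searched on both strands, TGANTCA for AP-1, CCGGAA and AGGAAG for ETS factors and GGGCGG for Sp1, and no match overlapped another in these 5 regions.
SERPINE2, chr2:224038641-224038890, minus strand, the more upstream start: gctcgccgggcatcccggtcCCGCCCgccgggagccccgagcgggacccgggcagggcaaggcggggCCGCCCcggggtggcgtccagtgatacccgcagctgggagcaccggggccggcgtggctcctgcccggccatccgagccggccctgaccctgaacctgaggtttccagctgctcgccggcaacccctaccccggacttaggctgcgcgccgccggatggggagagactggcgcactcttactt
TIMP1, chrX:47582186-47582435, plus strand: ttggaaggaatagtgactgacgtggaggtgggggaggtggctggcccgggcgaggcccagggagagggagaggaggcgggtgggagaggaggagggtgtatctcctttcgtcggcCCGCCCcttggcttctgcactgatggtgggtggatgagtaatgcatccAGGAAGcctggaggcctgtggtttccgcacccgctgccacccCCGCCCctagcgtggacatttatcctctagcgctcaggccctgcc
PLAUR, chr19:43670170-43670419, minus strand: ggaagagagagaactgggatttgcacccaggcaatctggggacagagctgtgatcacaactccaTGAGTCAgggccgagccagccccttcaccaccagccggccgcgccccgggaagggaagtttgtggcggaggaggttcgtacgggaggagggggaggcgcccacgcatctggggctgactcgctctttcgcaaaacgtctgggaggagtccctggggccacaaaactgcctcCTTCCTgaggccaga
TIMP3, chr22:32801455-32801704, plus strand: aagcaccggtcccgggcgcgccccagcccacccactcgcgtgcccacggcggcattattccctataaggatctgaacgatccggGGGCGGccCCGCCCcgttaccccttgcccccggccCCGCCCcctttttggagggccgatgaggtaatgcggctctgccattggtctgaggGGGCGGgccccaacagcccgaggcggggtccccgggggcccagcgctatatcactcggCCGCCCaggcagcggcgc
MMP14, chr14:22836335-22836584, plus strand: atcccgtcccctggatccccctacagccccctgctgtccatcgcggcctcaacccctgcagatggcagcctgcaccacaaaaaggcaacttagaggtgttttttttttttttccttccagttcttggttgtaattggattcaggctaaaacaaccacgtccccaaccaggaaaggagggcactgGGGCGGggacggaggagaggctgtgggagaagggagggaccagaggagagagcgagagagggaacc
The AP-1 letters occurred in 1 of the 6 genes, PLAUR, from 186 to 180 bases before the start, and in 6.57% of 35116 human promoters of this length. The Sp1 letters occurred in 5 of the 6 genes and in 42.6% of promoters, and TIMP3 carried 5 copies. AGGAAG occurred in 3 of the 6 genes, PLAU, PLAUR and TIMP1, and in 28.7% of promoters, and CCGGAA in 0 of the 6 genes and in 14.5% of promoters. A match describes the letters in this window and says nothing on binding.

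Compared per length of exon, SERPINE2 stood far above the other 8 genes in every group. Its level was 748 ± 0.257 RPKM (reads scaled to exon length and library depth, mean ± SD, n = 3) in DMSO cells, which placed it at rank 11 among 12470 genes ranked, and 788 ± 195 in CTRL cells. TIMP3 followed at 117 ± 7.69 in DMSO and 220 ± 3.67 in CTRL cells, and TIMP1 at 95.6 ± 4.23 and 85.1 ± 11.6. PLAT and MMP14 were next, at 29.1 ± 1.31 and 23.6 ± 1.07 in DMSO cells and at 36.6 ± 5.78 and 22.0 ± 9.44 in CTRL cells, where their spreads overlapped but PLAT was above MMP14 within each library. MMP2 and PLAUR were lower, at 7.88 ± 0.257 and 3.37 ± 0.358 in DMSO and 9.60 ± 2.44 and 5.42 ± 0.810 in CTRL cells. PLAU and MMP1 were near the detection limit, at 0.0886 ± 0.0446 and 0.0428 ± 0.0209 in DMSO cells and 0.0947 ± 0.0733 and 0.0967 ± 0.0665 in CTRL cells, and could not be ordered beyond their spread. The DMSO and CTRL libraries belong to different sequencing batches, so their levels were not compared with each other.

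**Figure D1:**
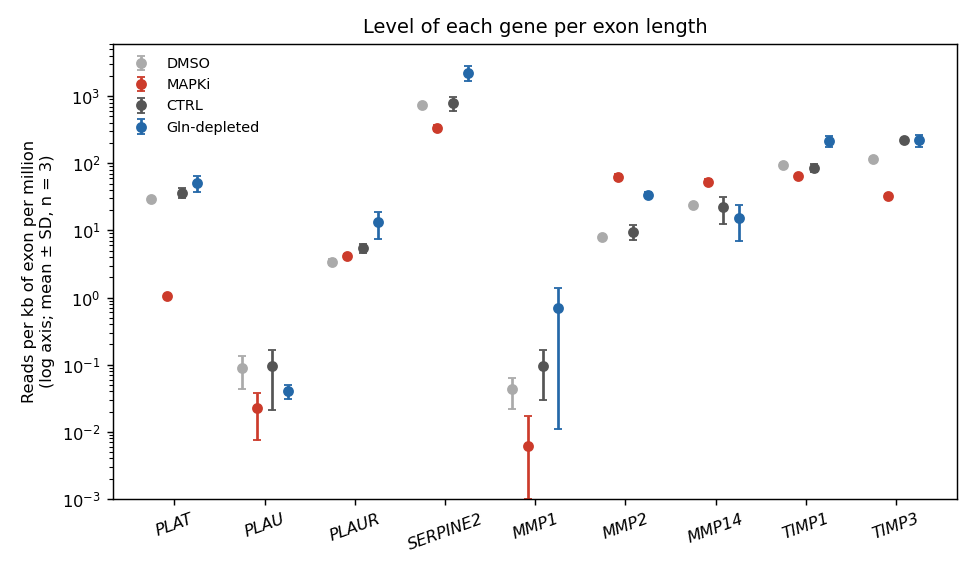
Level of each gene in RPKM (log axis) in the 4 groups, with points for the mean and bars for the SD of 3 libraries. SERPINE2 is highest in each group, from 339 in MAPKi to 2235 in Gln-depleted cells, and PLAU and MMP1 lie below 1, where the lower bar of MMP1 with MAPKi runs off the axis.

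With MAPKi, the plasminogen activator PLAT nearly disappeared, SERPINE2 and TIMP3 fell, and MMP2 and MMP14 rose. Of the 9 genes, 7 reached a mean of 10 normalized counts (reads scaled to the mean effective library size) and were tested. Of these 7, 3 were downregulated and 2 were upregulated, that is, changed by more than 1.5-fold at an adjusted p of 0.05 or less (edgeR's quasi-likelihood test, Benjamini-Hochberg adjustment over all genes tested), beside 18.4% and 17.1% of the 12591 genes tested (35.5% in either direction). All 7 differed from no change, 3 higher and 4 lower, as did 77.9% of all genes (39.1% higher and 38.9% lower), and the 3 libraries of each group did not overlap for any of them, as for 80.9% of all genes. Their median log2 fold change was -0.57, against 0.0073 over all genes. MAPKi thus moved most of the transcriptome, and the sizes below carry more information than the count of calls. In bulk libraries a lower level in every cell and fewer cells that express the gene cannot be told apart.

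PLAT (ENSG00000104368, chromosome 8 from 42174718 to 42207709, minus strand of GRCh38) had normalized counts of 290, 283 and 296 in the MAPKi libraries and 8274, 7876 and 7566 in the DMSO libraries. The libraries within each group lay close together and the groups were far apart. The mean fell from 7906 ± 355 to 289 ± 6.54 (SD, n = 3), a log2 fold change of -4.77 (standard error 0.058, edgeR adjusted p = 1.05e-10 against the 1.5-fold limit), or 27.3-fold lower. This was the largest change among the 7 genes. Per length, PLAT went from 29.1 ± 1.31 to 1.07 ± 0.0241 RPKM.

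PLAU (ENSG00000122861, chromosome 10 from 73909177 to 73917496, plus strand) did not reach the count minimum and was not tested, with 4, 1 and 2 reads in the MAPKi libraries and 12, 4 and 11 in the DMSO libraries. With a minimum of 2 reads instead, its log2 fold change was -1.92 (edgeR adjusted p = 0.0245 against no change). In the Gln experiment that fit gave -1.22 (edgeR adjusted p = 0.291), and both rest on few reads. The groups overlapped once scaled, at 4.04 in the highest MAPKi and 3.98 in the lowest DMSO library. Summed over each group, 7 reads stood against 27, a scaled ratio of 3.91 in favour of DMSO with a 95% interval of 1.66 to 10.6 that covers counting error only. Some of its exon bases are shared with C10orf55, a transcript of the other strand to which 0 to 2 reads per library were assigned. Its receptor PLAUR (ENSG00000011422, chromosome 19 from 43646095 to 43670547, minus strand) was slightly higher with MAPKi, at 596, 692 and 676 against 483, 589 and 505. The lowest MAPKi library was just above the highest DMSO library. The log2 fold change was 0.32 (standard error 0.092, edgeR adjusted p = 0.0107 against no change, and 0.334 in a fit of all 12 libraries), below the limit.

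SERPINE2 (ENSG00000135919, chromosome 2 from 223975045 to 224039318, minus strand) encodes a serpin that blocks thrombin, PLAU and PLAT. Its normalized counts were 118720, 97707 and 102477 in the MAPKi and 234146, 234294 and 234275 in the DMSO libraries. The DMSO libraries were almost equal and each MAPKi library was well below them. The level fell by 1.14 on the log2 scale (standard error 0.066, edgeR adjusted p = 9.42e-06 against the limit). The gene took 0.666% to 0.676% of all counted reads in DMSO and 0.285% to 0.328% in MAPKi libraries. Inhibitor and protease fell together but by unequal amounts. Per length, SERPINE2 was 24.6, 25.8 and 26.9 times as high as PLAT in the DMSO libraries and 356, 299.7 and 300.4 times as high in the MAPKi libraries.

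MMP2 (ENSG00000087245, chromosome 16 from 55389700 to 55506691, plus strand) encodes gelatinase A, which cleaves denatured collagen and type IV collagen of basement membranes. Its normalized counts were 11626, 9642 and 9821 in the MAPKi and 1287, 1342 and 1260 in the DMSO libraries. Every MAPKi library stood far above every DMSO library. The rise was 7.99-fold, a log2 fold change of 3.00 (standard error 0.079, edgeR adjusted p = 5.85e-09 against the limit). MMP14 (ENSG00000157227, chromosome 14 from 22836560 to 22849041, plus strand), the membrane-anchored activator of the MMP2 proform, had 9476, 8353 and 8013 with MAPKi and 4010, 3668 and 3789 with DMSO. Here too the groups were well separated. The rise was 2.25-fold, a log2 fold change of 1.17 (standard error 0.068, edgeR adjusted p = 8.51e-06 against the limit). In a fit of all 12 libraries, which lends the spread of the Gln experiment to the MAPKi experiment, MMP14 did not pass the limit (1.18, adjusted p = 0.0746). MMP1 (ENSG00000196611, chromosome 11 from 102789401 to 102798160, minus strand), the interstitial collagenase, had 0, 0 and 2 reads with MAPKi and 6, 3 and 3 with DMSO and was not tested. Summed, these are 2 and 12 reads, a scaled ratio of 6.09 in favour of DMSO (95% interval 1.36 to 56.0, counting error only).

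TIMP1 and TIMP3 were both lower with MAPKi, whereas TIMP2, described below, rose. TIMP3 (ENSG00000100234, chromosome 22 from 32801705 to 32863041, plus strand), which binds to the matrix and also inhibits ADAM proteases, had normalized counts of 5642, 4931 and 5126 with MAPKi and 19522, 19384 and 17315 with DMSO. The level fell 3.58-fold, by 1.84 on the log2 scale (standard error 0.069, edgeR adjusted p = 8.07e-08 against the limit). TIMP1 (ENSG00000102265, chromosome X from 47582408 to 47586789, plus strand), a soluble inhibitor of many MMPs, had 3447, 3180 and 3108 with MAPKi and 5069, 4653 and 4778 with DMSO. The groups were separate, but the change was small: TIMP1 fell by 0.57 on the log2 scale (standard error 0.054), past no change (edgeR adjusted p = 7.48e-06) and not past the limit (adjusted p = 0.649). TIMP1 and TIMP3 lie inside introns of SYN1 and SYN3 on the other strand, without shared exon bases, and few reads were counted on those genes, 15 to 61 on SYN1 and 124 to 237 on SYN3 over the 12 libraries.

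**Figure D2:**
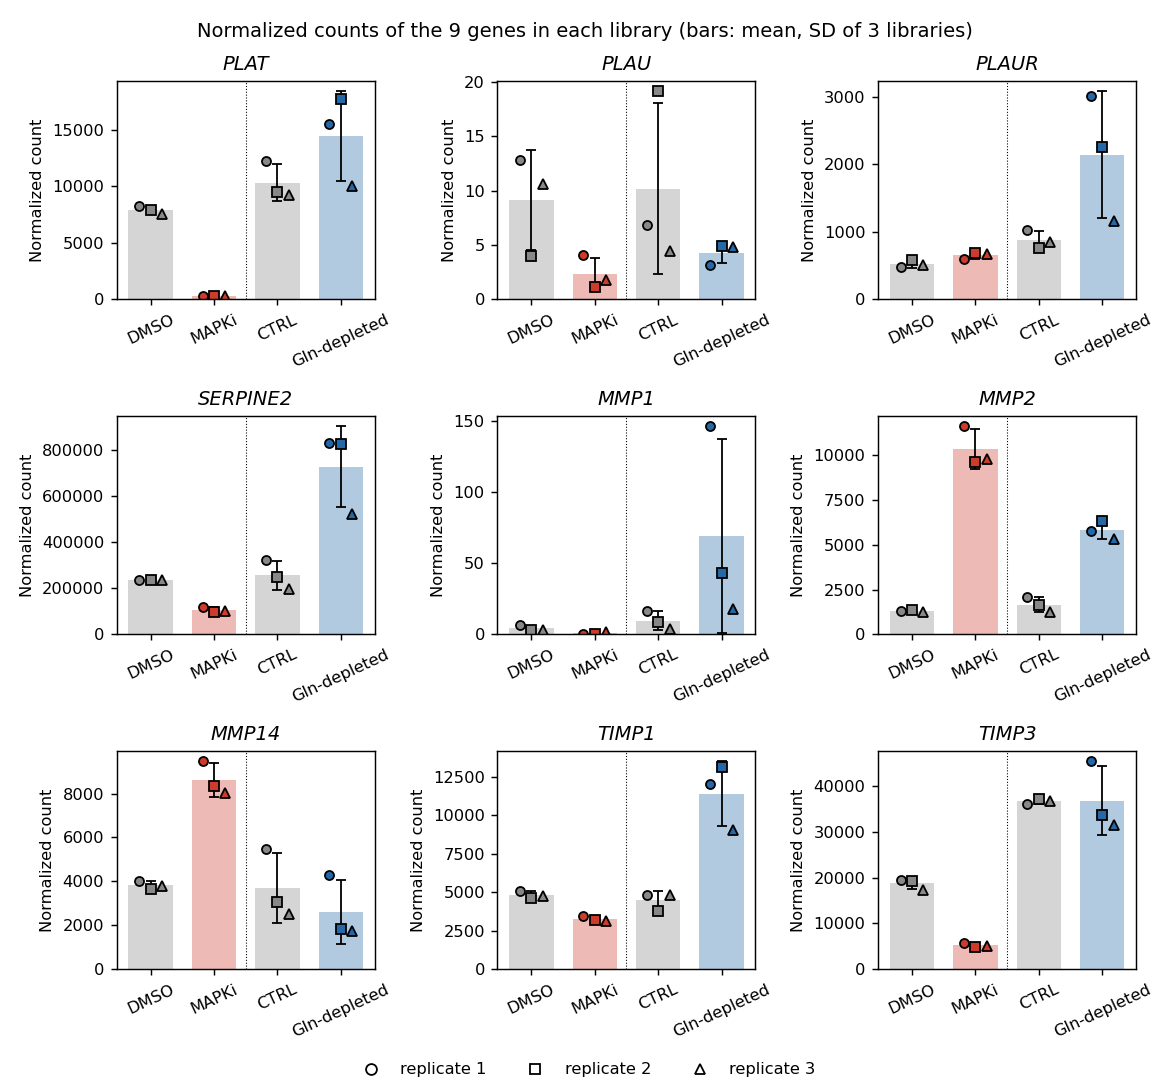
Normalized counts of the 9 genes, scaled within each experiment, in DMSO, MAPKi, CTRL and Gln-depleted cells, with bars for the mean, error bars for the SD of 3 libraries and a symbol per replicate (circle 1, square 2, triangle 3). PLAT is near the axis with MAPKi (289 against 7906), MMP2 is high under both treatments (10363 and 5817), and SERPINE2 and TIMP1 are high in Gln-depleted cells (726841 and 11397).

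The order of the levels changed as a result. In MAPKi cells SERPINE2 was still first at 339 ± 35.2 RPKM, at rank 37, followed by TIMP1 at 64.2 ± 3.54, MMP2 at 63.0 ± 6.67 and MMP14 at 53.3 ± 4.73, whose neighbours did not differ beyond their spread between libraries. Within each MAPKi library MMP2 was above MMP14, at ratios of 1.205, 1.134 and 1.204. TIMP3 came next at 32.6 ± 2.29, PLAUR at 4.20 ± 0.331 and PLAT at 1.07 ± 0.0241. Within a library, the ratio of MMP2 to TIMP3 was 0.0644, 0.0677 and 0.0711 with DMSO and 2.01, 1.91 and 1.87 with MAPKi. MMP2 was thus at a fraction of TIMP3 in every DMSO library and above it in every MAPKi library. The ratio of MMP14 to TIMP3 was 0.204, 0.188 and 0.218 with DMSO and 1.67, 1.69 and 1.55 with MAPKi, and that of MMP2 to TIMP1 was 0.0780, 0.0887 and 0.0810 with DMSO and 1.04, 0.932 and 0.971 with MAPKi. TIMP2, from the lists below, was at 124 ± 8.62 RPKM with DMSO and 378 ± 53.6 with MAPKi. It was thus above MMP2 and MMP14 in both groups, and ratios to TIMP2 were not computed. The ratios given do not depend on library scaling. They were chosen after the values were seen and were not tested.

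**Figure D3:**
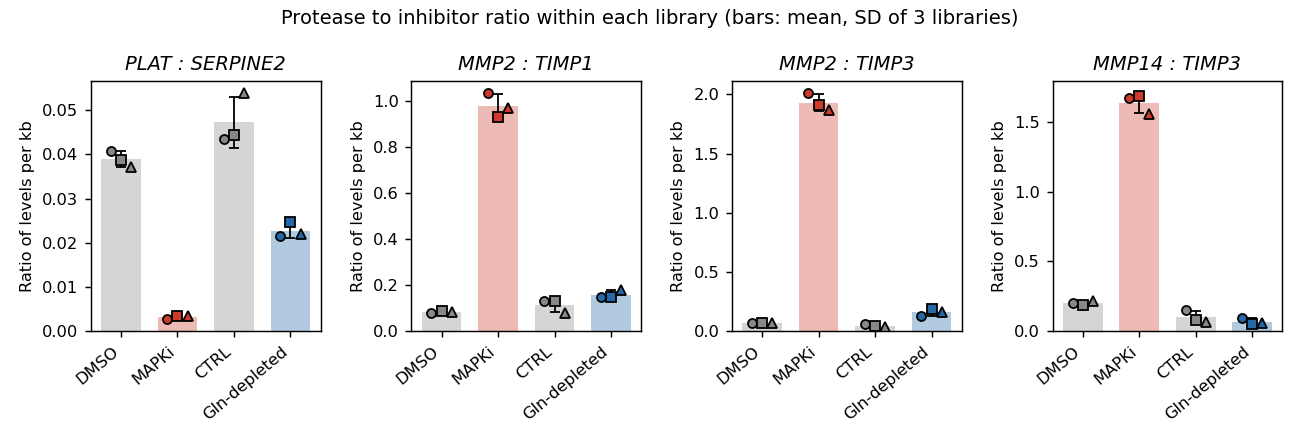
Ratio of a protease to an inhibitor, both per kb of exon, within each library, with bars for the mean, error bars for the SD of 3 libraries and a symbol per replicate. With MAPKi the ratios of MMP2 and MMP14 to TIMP3 are at 1.93 and 1.64, above those of each other group, and PLAT to SERPINE2 is at 0.00316. TIMP2, which rose with MAPKi, is not shown.

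Without glutamine a different picture emerged: SERPINE2, TIMP1 and MMP2 rose, and none of the 8 genes tested was downregulated. Of the 9 genes, 8 were tested, as MMP1 reached the minimum through the Gln-depleted libraries alone and had to differ to be included. Of these 8, 3 were upregulated and 0 downregulated past the limit, beside 3.49% and 1.92% of the 12510 genes tested, or 5.41% in either direction (edgeR's quasi-likelihood test, Benjamini-Hochberg adjustment). Against no change 4 were higher and 0 lower, beside 9.73% and 7.94% of all genes, or 17.7% in either direction (0 lower by DESeq2 too, and 0 lower at an unadjusted p under 0.05). The groups did not overlap for 5 of the 8, as for 39.7% of all genes. The median of the 8 log2 fold changes was 1.32 and that of all genes 0.016. The replicate numbers pair the libraries here, and with the replicate number as a block 5 genes were upregulated and 0 downregulated, beside 8.98% and 7.4% of all genes.

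SERPINE2 had normalized counts of 830875, 825641 and 524008 in the Gln-depleted and 323677, 248000 and 197674 in the CTRL libraries. The lowest Gln-depleted library was above the highest CTRL library, and the spread within each group was wide. The rise was 2.83-fold, a log2 fold change of 1.50 (standard error 0.25, edgeR adjusted p = 0.0306 against the limit, 0.000358 with the replicate block), and it was 1.36, 1.74 and 1.41 within the pairs. In Gln-depleted cells SERPINE2 took 1.40% to 2.12% of all counted reads, against 0.582% to 0.925% in CTRL cells, and ranked at place 3 per length among 12388 genes at 2235 ± 540 RPKM. TIMP1 had 12007, 13137 and 9048 against 4831, 3765 and 4807. Its groups were apart, and it rose 2.55-fold, with a log2 fold change of 1.35 (standard error 0.22, edgeR adjusted p = 0.0294 against the limit) and pair values of 1.31, 1.80 and 0.91. Both calls rest on the full set of libraries. Without CTRL replicate 2, CTRL replicate 3 or Gln-depleted replicate 2, SERPINE2 (1.35 to 1.48, adjusted p from 0.102 to 0.133) and TIMP1 (1.24 to 1.41, adjusted p from 0.0903 to 0.119) no longer passed the limit. Against no change their adjusted p stayed at or below 0.0400 and 0.0350 with any library left out.

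MMP2 rose without glutamine as it did with MAPKi, with normalized counts of 5771, 6357 and 5324 against 2068, 1616 and 1236 in CTRL libraries. No library of one group came near the other. The rise was 3.55-fold, a log2 fold change of 1.83 (standard error 0.23, edgeR adjusted p = 0.00830 against the limit), and MMP2 passed the limit with any library left out (adjusted p up to 0.0442). MMP14, its activator, did not rise. It had 4288, 1823 and 1729 in the Gln-depleted and 5496, 3047 and 2531 in the CTRL libraries, and the groups overlapped because replicate 1 was high in both. The log2 fold change was -0.50 (standard error 0.42, edgeR adjusted p = 0.434 against no change). With the replicate block it was -0.55 and passed no change (adjusted p = 0.00946) but not the limit (adjusted p = 0.804), and all 3 pairs were lower, by 0.36, 0.74 and 0.55.

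PLAUR and MMP1 were higher in each Gln-depleted library than in every CTRL library, with a wide spread. PLAUR had 3015, 2259 and 1157 against 1020, 763 and 847, and a log2 fold change of 1.29 (standard error 0.34, edgeR adjusted p = 0.0341 against no change and 0.131 against the limit). With the replicate block it was 1.20 and passed the limit (adjusted p = 0.0320). Leaving out Gln-depleted replicate 3 brought it past the limit (1.56, adjusted p = 0.0354), and without Gln-depleted replicate 1 or 2 or CTRL replicate 2 or 3 it did not pass no change (adjusted p from 0.0560 to 0.108). MMP1 had 139, 44 and 15 reads in the Gln-depleted and 17, 9 and 4 in the CTRL libraries, or 146, 43.0 and 17.9 against 16.7, 8.60 and 3.57 normalized counts. Most of its 198 Gln-depleted reads came from replicate 1, which was also the highest among the CTRL libraries. The log2 fold change was 2.84 (standard error 0.84, edgeR adjusted p = 0.0502 against no change), which missed the threshold (DESeq2 adjusted p = 0.00346), and with the replicate block it was 2.66 and passed the limit (adjusted p = 0.00420). Without Gln-depleted replicate 1 it was 1.67 (adjusted p = 0.105), and of the libraries left out in turn only CTRL replicate 1 and Gln-depleted replicate 3 brought it past no change (adjusted p = 0.0489 and 0.0415). MMP1 shares 223 exon bases with the pseudogene WTAPP1 of the other strand, on which 0 or 1 read per library was counted.

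The remaining genes did not pass the test. PLAT, with 15508, 17706 and 10006 against 12202, 9526 and 9244, had a log2 fold change of 0.48 (standard error 0.25, edgeR adjusted p = 0.208 against no change, 0.0481 with the replicate block), and its groups overlapped. TIMP3, with 45475, 33652 and 31440 against 36038, 37241 and 36841, had one of 0.01 (standard error 0.19, adjusted p = 0.986), and Gln-depleted replicate 1 lay above and the other 2 below the CTRL libraries. PLAU had 3, 5 and 4 reads against 7, 20 and 5, overlapping groups, and a scaled ratio of its 12 and 32 reads of 2.35 in favour of CTRL (95% interval 1.18 to 5.02, counting error only). Replicate 1 of both groups belongs to experimental batch 1 and the others to batch 2. Within batch 2, SERPINE2, TIMP1 and MMP2 were also upregulated, with log2 fold changes of 1.60, 1.37 and 2.03, while batch 1 holds 1 library per group and was not tested.

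**Figure D4:**
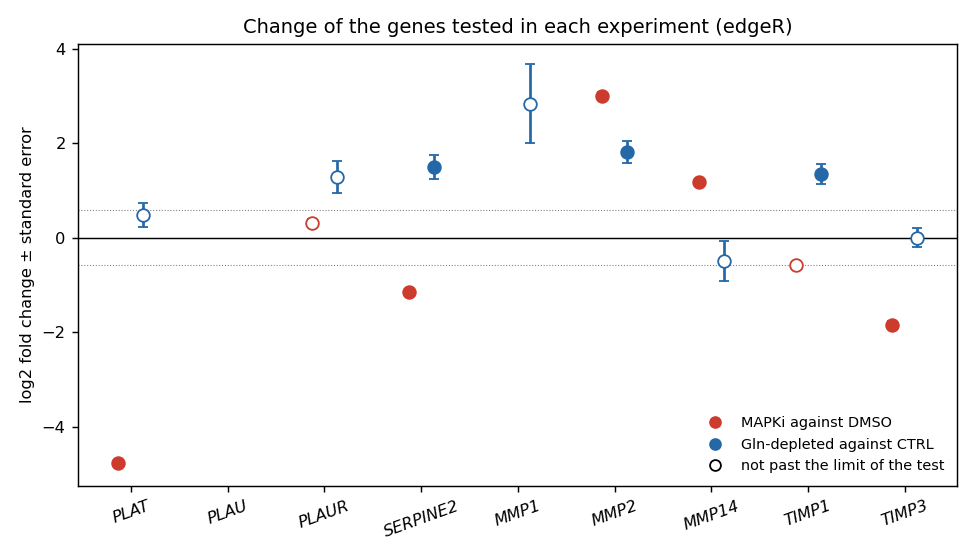
Log2 fold change of each tested gene with its standard error, for the MAPKi and the Gln experiment, where filled points passed the 1.5-fold limit (dotted lines) and most MAPKi error bars are smaller than the points. PLAU was not tested in either experiment and MMP1 not with MAPKi. MMP2 is filled and positive in both (3.00 and 1.83), and SERPINE2 is at -1.14 with MAPKi and 1.50 without glutamine.

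In Gln-depleted cells TIMP3 at 221 ± 45.2 and TIMP1 at 217 ± 40.2 RPKM did not differ beyond their spread between libraries, nor did PLAT at 51.1 ± 14.1 and MMP2 at 34.0 ± 3.03, or MMP14 at 15.6 ± 8.64 and PLAUR at 13.2 ± 5.77. Within each Gln-depleted library PLAT was above MMP2 per length. The ratio of MMP2 to TIMP1 was 0.148, 0.149 and 0.181 in the Gln-depleted and 0.132, 0.132 and 0.0790 in the CTRL libraries, with the lowest Gln-depleted library just above the highest CTRL library. The ratio of MMP2 to TIMP3 was 0.124, 0.185 and 0.165 against 0.0561, 0.0424 and 0.0328. SERPINE2 was 46.5, 40.5 and 45.4 times as high as PLAT per length in the Gln-depleted and 23.0, 22.6 and 18.6 times in the CTRL libraries.

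The effects of both treatments were then compared directly as a difference of log2 fold changes over the 12 libraries, which share no library between experiments. Of 8 genes tested, 7 differed at the 0.05 threshold, beside 40% of 12820 genes (edgeR's quasi-likelihood test, Benjamini-Hochberg adjustment). The 7 include MMP1, which reached the count minimum through the Gln-depleted libraries, where it was high, so that the filter favoured its difference. SERPINE2 moved in opposite directions, with a MAPKi effect lower by 2.59 on the log2 scale than the Gln depletion effect (standard error 0.29, edgeR adjusted p = 3.42e-05). TIMP1 likewise was lower with MAPKi and higher without glutamine, a difference of -1.88 (standard error 0.21, adjusted p = 3.97e-05). PLAT and TIMP3 fell with MAPKi and did not pass the limit without glutamine, and their differences were -5.20 and -1.80 (adjusted p = 1.59e-07 and 3.38e-05). MMP2 rose in both and more with MAPKi, by 1.22 (standard error 0.24, adjusted p = 0.00185), and MMP14 rose with MAPKi and had -0.50 without glutamine, with a difference of 1.72 (adjusted p = 0.0153). For PLAUR the difference was -0.92 (standard error 0.38, adjusted p = 0.0728, or 0.0312 with a replicate block).

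The other genes of the plasminogen system were described from a list of 21, of which 12 were tested in each experiment. With MAPKi 5 were up- and 1 downregulated, beside 17.1% and 18.4% of all genes, with a median log2 fold change of 0.63 against 0.0073 over all genes. VTN reached the count minimum through the MAPKi libraries alone, at 39.5 against 4.06 normalized counts, and had to be high there to be tested. VTN, which encodes vitronectin, A2M, which encodes the broad protease trap alpha-2-macroglobulin, and LRP1, a receptor that clears protease complexes, rose by 3.25, 2.06 and 1.48 on the log2 scale, and A2M went from 16722 ± 2538 to 69859 ± 3337 normalized counts (SD, n = 3). F12, which encodes a coagulation factor, fell by 1.29. With the replicate block MRC2 was upregulated in addition (0.68, edgeR adjusted p = 0.0145 against the limit, and 0.0752 without the block). ANXA2 and S100A10, whose products form a surface complex that binds plasminogen and PLAT, changed in opposite directions by less than the limit, with 0.46 and -0.35. Without glutamine 0 of the 12 passed the limit in either direction, beside 5.41% of all genes. At an unadjusted p under 0.05 against no change (edgeR) 4 differed, and the share of all genes under that rule is not given here. Against no change 1, LRPAP1, was lower, beside 7.94% of all genes, and the median was -0.06. With the block SERPINB2, which encodes an inhibitor of PLAU, had a log2 fold change of 2.56 (adjusted p = 0.0357), but at 17.6 against 3.25 normalized counts it was tested only because it was high in the Gln-depleted libraries. A2M, ANXA2, S100A10 and LRP1 had values of -0.58, 0.57, 0.42 and 0.25 and did not pass no change, except ANXA2 with the block (adjusted p = 0.00664).

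Of 20 other MMP genes, 7 were tested in each experiment. With MAPKi MMP19 and MMP24 were upregulated, by 2.98 and 1.34, from 6.38 and 26.2 normalized counts. MMP16 and MMP17 were downregulated, by 1.91 and 1.16, so that 2 rose and 2 fell beside 17.1% and 18.4% of all genes. MMP19 reached the count minimum only through the MAPKi libraries, where it was high. MMP16 fell from 19412 ± 594 to 5166 ± 428 normalized counts, in the opposite direction to MMP14. Without glutamine 0 of the 7 passed the limit, beside 5.41% of all genes. Against no change 1, MMP15, was lower, beside 7.94% of all genes (with the block it was downregulated, -1.11, adjusted p = 0.0196). MMP3, stromelysin-1, had 0 reads in all MAPKi libraries and 4.3, 8.0 and 7.7 normalized counts in DMSO libraries and was not tested there. In Gln-depleted cells it had 32.6, 20.5 and 7.2 against 4.9, 9.6 and 2.7, with overlapping groups and a log2 fold change of 1.81 (adjusted p = 0.0957 against no change, 0.0255 with the block), and it too reached the count minimum only through the group where it was high. MMP9 was too low to be tested in either experiment.

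Among 10 further TIMPs and surface regulators of MMPs, 9 were tested with MAPKi, of which 3 were up- and 1 downregulated, beside 17.1% and 18.4% of all genes. TIMP2, which binds MMP14 in the complex that activates the MMP2 proform and inhibits MMPs in excess, rose 3.05-fold with MAPKi, from 26867 ± 1872 to 82041 ± 11643 normalized counts (log2 fold change 1.61). TIMP2 thus moved with MMP2 and MMP14 and against TIMP1 and TIMP3. CD44, a hyaluronan receptor that binds proteases at the surface, and PCSK6, a proprotein convertase, rose by 1.24 and 1.21, and CAV1, the caveolar coat protein, fell by 1.69. RECK, a membrane-anchored inhibitor of MMPs, and BSG, an inducer of MMPs, changed by -0.39 and 0.44, below the limit. Without glutamine TIMP2 and RECK were lower by 0.77 and 0.81 (edgeR adjusted p = 0.0464 and 0.0395 against no change), short of the limit, and CD44 and BSG had -0.11 and 0.08. Of all 10 tested there, 1 was upregulated, the tight junction gene CLDN1, from 31.5 ± 13.3 to 636 ± 257 normalized counts (log2 fold change 4.33, adjusted p = 0.00201 against the limit), and 0 were downregulated, beside 3.49% and 1.92% of all genes. Against no change 4 were lower, beside 7.94% of all genes. With the block TIMP4 was downregulated (-1.46, adjusted p = 0.0387). The MAPKi effect on TIMP2 exceeded that of Gln depletion by 2.43 (edgeR adjusted p = 2.26e-05).

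Of 15 other serpins 9 were tested in each experiment, and with MAPKi 6 were up- and 1 downregulated, beside 17.1% and 18.4% of all genes, the median being 1.04 against 0.0073. SERPING1 was tested only because it was high in the MAPKi libraries, at 21.5 normalized counts. SERPINF1, which encodes pigment epithelium-derived factor, rose by 2.89 and SERPING1 and SERPINA1, inhibitors of complement proteases and of neutrophil elastase, by 1.73 and 1.64 from 6.38 and 11.3 normalized counts, while SERPINA3 fell by 0.76 from 141553 ± 9612. Without glutamine only SERPINB8 was upregulated among these 9, beside 3.49% of all genes. It went from 342 ± 78.5 to 2453 ± 677 normalized counts (log2 fold change 2.84, edgeR adjusted p = 0.00223 against the limit), and SERPINA3 was downregulated with the block (-1.19, adjusted p = 0.00218). Of 23 ADAM and ADAMTS genes, a related family of metalloproteinases in part inhibited by TIMP3, 13 were tested in each experiment. With MAPKi ADAMTS15, ADAMTS7 and ADAMTS4 rose by 4.01, 2.60 and 1.61, and 5 were downregulated (beside 17.1% up and 18.4% down of all genes), among them ADAMTS17, ADAM19 and ADAM12 with -3.13, -2.64 and -2.57. Without glutamine ADAMTS17 alone passed the limit (1.23, adjusted p = 0.0346), beside 5.41% of all genes. This was opposite to its MAPKi effect (difference -4.31, adjusted p = 1.94e-07), and with the block ADAMTS9 was downregulated (-1.05, adjusted p = 0.0195).

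**Figure D5:**
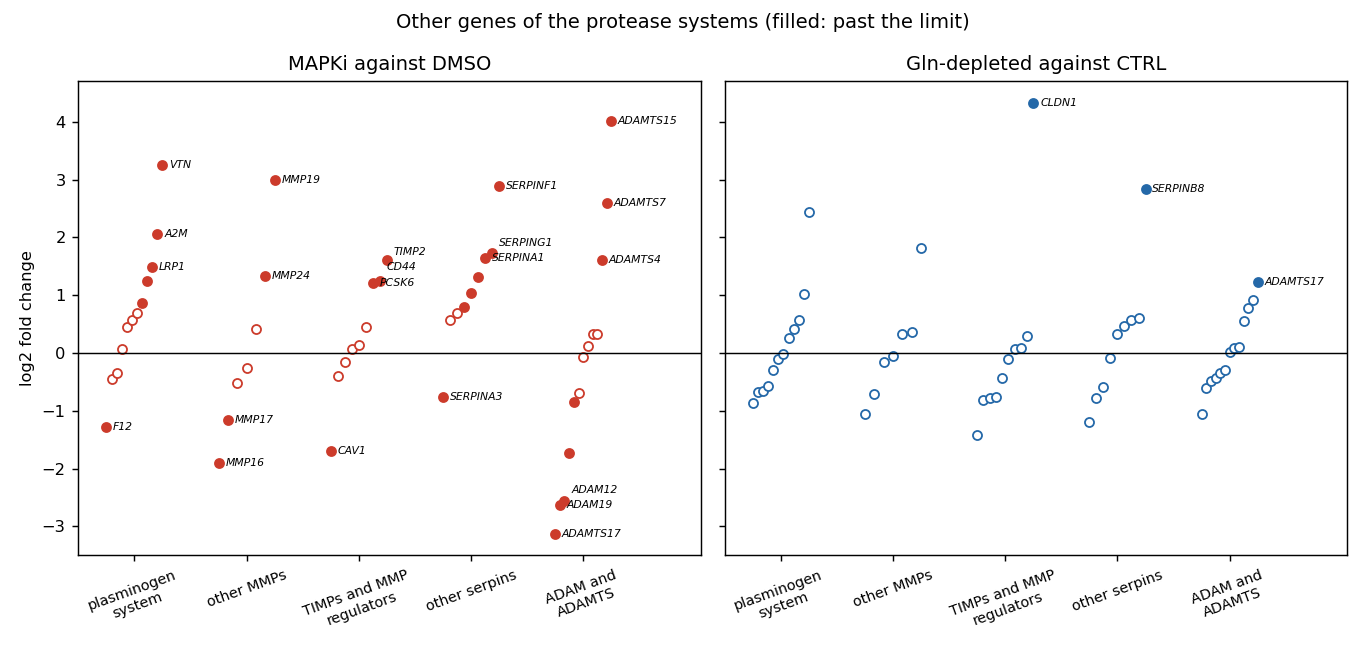
Log2 fold change of each tested gene in 5 lists of the plasminogen and metalloproteinase systems, for the MAPKi and the Gln experiment, ordered by size within a list, where filled points passed the 1.5-fold limit. The MAPKi panel has 19 filled points above and 10 below 0, beside 17.1% and 18.4% of all genes. Of these, VTN, MMP19 and SERPING1 were tested only because they were high with MAPKi. The Gln panel has 3 above, CLDN1, SERPINB8 and ADAMTS17, and 0 below, beside 3.49% and 1.92% of all genes. The numbers tested per list are in the text.

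For each gene, the pair of genes whose log2 levels were closest over the 12 libraries was taken from those with 100 or more normalized counts on average, by the root mean square difference of values centred on their mean. For SERPINE2 these were GARS1, a glycyl-tRNA synthetase, at 0.186 and JAG1, a Notch ligand, at 0.194. For TIMP1 they were POLR3D and ASAP2 at 0.177 and 0.179, for MMP14 SUOX and STAT2 at 0.131 and 0.163, for PLAUR SH3TC1 and TBX3 at 0.193 and 0.208, and for MMP2 CYP26B1, which degrades retinoic acid, and PLXNB3 at 0.205 and 0.291. For TIMP3 they were SH2D5 and EPHA4 at 0.228 and 0.248, and for PLAT PPP1R14C and SH3TC2 at 0.318 and 0.366. MMP1 had no close match, with FST and GDF15 at 0.758 and 0.796, and PLAU, at a mean of 6.48 normalized counts, had SLC4A7 and CLCN5 at 0.503 and 0.515. The libraries of an experiment share a sequencing batch, so these distances hold the difference between batches as well as the treatments.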

How the data were processed

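RNA-seq libraries of A375 cells were grouped by the treatment in the sample labels, 3 per group. Per the labels and the study's methods, the authors trimmed reads with fastp 0.20.1, aligned them to GRCh38.p13 with HISAT2 2.2.1 and counted those on exons with HTSeq 0.13.5, and the deposited values are raw counts per gene symbol. The strand setting is not given in the sources used here. The labels name cytoplasmic RNA, the methods total RNA.

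The 9 genes and the lists were chosen with earlier results of these data known. Symbols were matched to RefSeq (36524 by symbol, 513 by older symbol), and 19372 were protein-coding. Within each experiment edgeR 4.0.16 in R 4.3.3 (TMM normalization with factors of 0.926 to 1.078, quasi-likelihood fit with no term beside treatment) was run on the protein-coding genes that averaged 10 or more normalized counts. Changed means an adjusted p (Benjamini-Hochberg) of 0.05 or less against no change, and up- or downregulated the same against a fold change of 1.5 (glmTreat), a limit taken from the study, which used DESeq2. Differences between treatments were tested as a contrast over 12 libraries. Levels per length used merged exons of GENCODE release 44. Figures were drawn with matplotlib 3.10.9 in Python 3.11.15 (pandas 2.3.3, numpy 2.4.6). The procedure was tested on simulated data.

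All 9 genes are named, and from each list the up to 3 largest rises and falls past the limit, plus A2M, ANXA2, S100A10, LRP1, TIMP2, RECK, MMP9, MMP3, BSG and CD44. List genes called with the replicate block alone, LRPAP1 and MMP15 were named after their values were seen. Some genes of the lists are not reported here.

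Replicates differed by more than sampling noise (chi-square over its degrees of freedom 4.74 to 191), so none was deposited a second time. Same-numbered Gln libraries carry the same laboratory number and batch in the labels, and their deviations from the group means correlated (0.712, 0.586 and 0.445), so the number pairs them and values with the replicate block are given where they change a call. Intervals of read ratios are exact at 95%. Alternatives were DESeq2's size factors, DESeq2 1.42.0, other count minimums, all genes, all 12 libraries, other limits, the replicate block, each library left out and experimental batch 2 alone.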

Additional observations from a re-analysis of the deposited data

Results flagged for a closer look

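For 7 genes the effect of MAPKi differed from that of Gln depletion in a test of the difference itself (edgeR's quasi-likelihood test over the 12 libraries, Benjamini-Hochberg adjustment, threshold 0.05), as it did for 40% of all 12820 genes. The difference in log2 fold change was -5.20 for PLAT, -2.59 for SERPINE2, -1.88 for TIMP1 and -1.80 for TIMP3. For MMP2 it was 1.22 and for MMP14 1.72, both higher with MAPKi. For MMP1 it was -5.22 (standard error 1.57, adjusted p = 0.0198), a value that depends on the prior count because MAPKi libraries held 0, 0 and 2 reads, and MMP1 reached the count minimum only through the Gln-depleted libraries, where it was high. Without DMSO replicate 1 it was -4.77 and no longer passed (adjusted p = 0.0645), and with other libraries left out it went from -4.05 (without Gln-depleted replicate 1) to -7.85 (without MAPKi replicate 3).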

How the results depend on the processing

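With MAPKi, 3 of the genes were downregulated and 2 upregulated under every alternative except the fit of all 12 libraries, where 1 was upregulated, and no fold limit, with 4 lower and 3 higher. Over all 12591 genes tested, 2317 were downregulated and 2154 upregulated. Without a fold limit 4894 were lower and 4919 higher, and with a log2 limit of 1 the counts were 1259 and 1042. Under Gln depletion, where 3 were upregulated, the number was 5 in the fit of all 12 libraries and with the replicate block (PLAUR and MMP1 in addition), 4 without a fold limit, 1 (MMP2) with a log2 limit of 1 or an adjusted p of 0.01, and 1 to 4 with each library left out. Over all 12510 genes tested, 437 were upregulated, 1124 with the block, 1217 without a fold limit and 198 with a log2 limit of 1. Counts over all genes are not given here for the fit of 12 libraries, the adjusted p of 0.01 and libraries left out. The number of genes that differed between the treatments was 7, 8 with DESeq2 or the block, and 6 to 8 with each library left out. Among list genes, 10 were downregulated with MAPKi, or 16 without a fold limit. Under Gln depletion 0 were, or 4 with the replicate block and 8 without a fold limit. The number tested in each list is given above. Over all genes tested with MAPKi, 18.4% were downregulated, and 38.9% were lower without a fold limit. For Gln depletion the share was 1.92%, or 7.4% with the block and 7.94% without a fold limit. TIMP3 under Gln depletion, at 0.01, changed sign to -0.031 with all 12 libraries, -0.0135 with the replicate block, -0.0072 without CTRL replicate 1, -0.17 without Gln-depleted replicate 1 (up to 0.077 with another library left out) and -0.19 in experimental batch 2 alone. The difference of PLAUR also passed with DESeq2 (-0.95), the block (-0.83) and without Gln-depleted replicate 3 (-1.23). The causes of these changes were not tested.

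The labels give same-numbered MAPKi and DMSO libraries the same laboratory number as well. Their deviations correlated weakly, at 0.165, 0.0467 and 0.0233, and MAPKi replicate 3 correlated best with DMSO replicate 2 (0.106). Such weak correlations do not decide whether the number pairs these libraries. In the MAPKi experiment the replicate block gave 2364 down- and 2232 upregulated genes against 2317 and 2154 without it, and the 3 and 2 calls among the genes remained. In the Gln experiment the block moved all calls from 240 down and 437 up to 926 and 1124, and changed no call past the limit other than those given beside the results. PLAU and MMP1 with MAPKi are limited by depth, at 0 to 12 reads per library.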

Other observations

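In the Gln experiment some genes of these systems differed more between replicate 1 (experimental batch 1) and the others (experimental batch 2) than between the groups. MMP16 had normalized counts of 10356 in CTRL replicate 1 and of 23823 and 20288 in the others, and of 12378 in Gln-depleted replicate 1 and of 29940 and 27510 in the others. A2M went the other way, with 20708 against 9276 and 5229 in CTRL and 12894 against 4617 and 6079 in Gln-depleted libraries, as did MMP14. These genes were chosen after their values were seen, and with 1 library of batch 1 per group the difference between batches was not tested.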
